A study of Arabidopsis thaliana with 12 samples.

Results

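The class III peroxidases are a plant family of secreted haem enzymes, and 68 of the 25941 genes in the table belonged to it. A gene counted as a member when its protein description began with Peroxidase, or Putative Peroxidase, and a number. By that wording 69 rows matched, and AT5G42180 was left out, so 68 genes were followed. Members are called PER and the number of the description, except AT1G05240 and AT1G05250, which are both described as number 2 and are called by locus. The rule reads the description and no measured value, but members and gene lists were chosen with earlier results of these data known.

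The libraries came from roots of Arabidopsis thaliana, ecotype Columbia-0, kept for 10 days on solid MS medium. The wild type and the transgenic line OX3 each received either 1250 µM phosphate (normal phosphate) or 6.25 µM phosphate (low phosphate). Every group held 3 libraries, numbered 2, 3 and 4 except for OX3 at low phosphate, where the numbers were 1, 2 and 4. OX3 carries GmVP2 as an overexpressed transgene, which codes for a proton pump of the soybean vacuole that is driven by pyrophosphate. It is 1 line, and the sources used here do not give the promoter behind the transgene. An empty-vector line was not analysed here. The labels do not say whether replicates were separate cultures, so the p-values reflect the variation among these libraries only and that variation may be technical.

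Class III peroxidases are secreted to the cell wall and the vacuole. There they use hydrogen peroxide to oxidise phenolic compounds, which stiffens walls through lignin, suberin and cross-linked wall proteins, and they can also generate reactive oxygen that loosens walls. In roots, single members are known for work in root hair growth, in the lignin of xylem, in the Casparian strip (the lignin ring that seals the endodermis) and in the burst of reactive oxygen that follows pathogen contact. Low phosphate is known to shorten the primary root of Columbia-0 and to increase root hair length and density.

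Library totals, inferred from the RPKM values, ran from 17670350 to 20418541 reads. RPKM is the read count of a gene scaled to its length in kilobases and to the size of the library. A count of 3 reads for a 1 kb gene equalled 0.147 to 0.170 RPKM. The 6 root marker genes were all measured and summed to 168 to 199 RPKM in a library. Transcripts of 6 photosynthesis genes typical of shoots were present too. Their sum was 434 to 495 RPKM in wild type at normal phosphate, 177 to 208 at low phosphate, 658 to 691 in OX3 at normal phosphate and 199 to 234 at low phosphate. All 6 were lower at low phosphate in both genotypes and 4 were higher in OX3 than in wild type at normal phosphate (limma, adjusted p below 0.05), and their part in the peroxidase results was not tested.

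The members lay on all 5 nuclear chromosomes, with 12, 12, 10, 15 and 19 on chromosomes 1 to 5. In the TAIR10.1 annotation 47 of the 68 had 4 exon blocks, the usual layout of the family, and the predicted proteins had 310 to 404 residues with a median of 329.5. Over the 2278 pairs of members, identity of the translated coding sequences ran from 30.9% to 100% with a median of 41.6%, and 13 pairs reached 80%. A total of 22 members sat in 10 neighbouring pairs or arrays with at most 1 other gene between them.

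Near-identical members limit what reads can tell apart. Of all 50-base stretches in the exons, none occurred elsewhere in the genome for 55 members. The shares were 7.2% for PER33, 7.5% for PER34, 6.1% for PER37 and 7.4% for PER38, while they were 58.9% for AT1G05240 and 100% for AT1G05250, whose values are therefore uncertain. The coding stretches of 90 bases that surround the conserved distal histidine of the active site show this, in TAIR10.1 and on the strand of each gene, with capitals at the bases where the paired genes differ. Each spans 1 intron, which is not printed. PER33 (chr3:18200889-18201538) and PER34 (chr3:18207992-18208834), both on the plus strand, differed at 6 of the 90 bases. PER37 (chr4:5599270-5600113, minus strand) and PER38 (chr4:5604302-5607241, plus strand) differed at 1. AT1G05240 (chr1:1521357-1521535, plus strand) and AT1G05250 (chr1:1526836-1527014, minus strand) did not differ there.
PER33: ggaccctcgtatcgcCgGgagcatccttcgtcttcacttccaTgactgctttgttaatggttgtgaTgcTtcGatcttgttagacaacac
PER34: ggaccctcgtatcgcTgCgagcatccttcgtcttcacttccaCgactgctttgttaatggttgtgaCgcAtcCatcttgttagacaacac
PER37: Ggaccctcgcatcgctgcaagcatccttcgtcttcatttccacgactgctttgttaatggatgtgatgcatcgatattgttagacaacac
PER38: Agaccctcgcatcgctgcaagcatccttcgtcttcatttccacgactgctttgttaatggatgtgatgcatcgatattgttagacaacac
AT1G05240: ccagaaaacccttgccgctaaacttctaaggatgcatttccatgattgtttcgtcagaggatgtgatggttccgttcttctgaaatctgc
AT1G05250: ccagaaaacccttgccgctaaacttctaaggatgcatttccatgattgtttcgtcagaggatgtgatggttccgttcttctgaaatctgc

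The family was unevenly expressed. Averaged over the 12 libraries, 14 members reached 100 RPKM, 29 lay between 10 and 100, 12 between 1 and 10, and 13 below 1. Together the members accounted for 0.862% to 1.028% of a library's reads, and the 5 most abundant members of each library took 55.0% to 62.1% of the family's reads. The family's share was 0.897% to 0.923% in wild type at normal phosphate and 0.953% to 1.028% at low phosphate. In OX3 it was 0.862% to 0.895% and 0.977% to 1.011%, so the libraries of the 2 phosphate levels did not overlap in either genotype.

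PER42, PER34, PER32, PER22 and PER45 had the highest means over all libraries, 1269, 701.5, 679, 406 and 306.5 RPKM. They were followed by PER30 at 289, PER23 at 211, PER15 at 194, PER49 at 157 and PER21 at 155 RPKM. The leading member, PER42, hardly moved. Its level was 1209, 1229 and 1205 RPKM in wild type at normal phosphate, 1227, 1222 and 1224 at low phosphate, and in OX3 1364, 1244 and 1304 at normal against 1303, 1307 and 1387 at low phosphate. The phosphate groups overlapped in both genotypes, and every OX3 library lay above the wild-type libraries of the same medium by a margin that did not pass the test (adjusted p = 0.37 at normal and 0.409 at low phosphate, limma). The likewise abundant PER32, PER45, PER30 and PER23 did not pass in either genotype, with log2 changes at low phosphate of -0.10, 0.08, 0.10 and -0.05 in wild type and 0.07, 0.01, 0.10 and 0.01 in OX3.

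**Figure D1:**
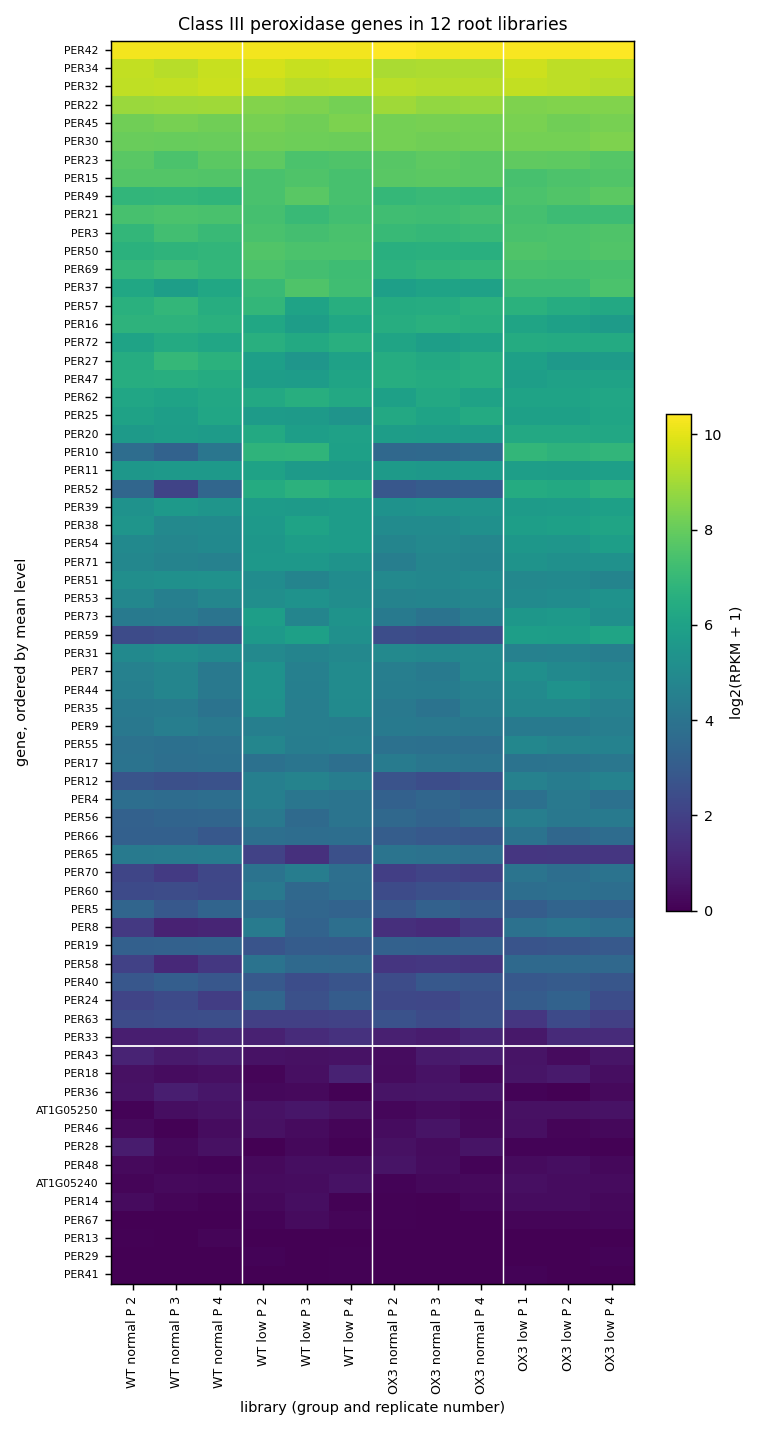
Level of the 68 members, as log2(RPKM + 1), in each of the 12 libraries, with genes ordered by their mean and the white horizontal line under the 55 that were tested. The strongest steps between neighbouring blocks of libraries are seen in genes of middle level such as PER52, PER59 and PER10, while PER42 at the top keeps its colour throughout.

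At low phosphate more peroxidase genes rose than fell in wild-type roots. The largest rises were those of PER52, a member tied to lignin formation, PER59 and PER10, all of which were weakly expressed at normal phosphate, and the largest fall was that of PER65. Of the 55 members with a mean of at least 1 RPKM, 28 were higher and 11 lower at an adjusted p below 0.05 in limma, which is 50.9% and 20% of those tested. Over all 18910 genes tested the same rule called 24.3% higher and 21.6% lower. The median log2 change was 0.29 for the tested members and 0.02 for all genes, and the median size of the change, whatever its sign, was 0.47 against 0.20. A change of at least 1 on the log2 scale was reached by 10 members upward, against 4.47% of all genes, and by 1 member downward, against 3.32% of all genes. The count of lower members was 7 without wild-type normal-phosphate replicate 4. Since these are whole roots, more cells of a type and more RNA per cell cannot be told apart.

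PER52 (AT5G05340, chr5:1578869-1580875, minus strand) had the largest rise in wild type. It measured 9.99, 3.25 and 9.85 RPKM at normal and 85.8, 104 and 84.3 at low phosphate. The lowest low-phosphate library was far above the highest normal-phosphate one, the means stood 11.8-fold apart, and the fitted log2 change was 3.52 (SE 0.26, adjusted p = 5.79e-08, limma). All fitted changes include a pseudocount of 1 RPKM, which makes them smaller than the ratio of means for low genes.

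PER59 (AT5G19890, chr5:6724076-6725966, minus strand) measured 4.28, 4.67 and 5.12 RPKM at normal and 49.0, 60.0 and 37.1 at low phosphate. PER10 (AT1G49570, chr1:18346958-18349049, plus strand) measured 12.4, 8.80 and 15.9 RPKM at normal and 110.4, 114 and 60.9 at low phosphate. Neither gene's groups overlapped, although replicate 4 was the lowest of the low-phosphate libraries in both. The means were 10.4-fold apart for PER59 and 7.70-fold for PER10, with log2 changes of 3.10 (SE 0.13, adjusted p = 1.62e-10) and 2.83 (SE 0.21, adjusted p = 4.44e-08, limma).

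PER8 measured 2.31, 0.991 and 1.13 RPKM at normal and 19.1, 9.13 and 13.2 at low phosphate, a log2 change of 2.56 (SE 0.22). PER12 measured 5.59, 4.85 and 5.24 RPKM and then 21.5, 24.7 and 20.6, a log2 change of 1.90 with a small error (SE 0.09). In both genes all low-phosphate libraries lay above all normal-phosphate ones, while the low-phosphate libraries of PER8 were spread more widely than those of PER12. PER58, PER70, PER60, PER37 and PER73 completed the 10 largest rises, with log2 changes of 2.05, 2.01, 1.48, 1.20 and 1.10 and no overlap between groups.

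**Figure D2:**
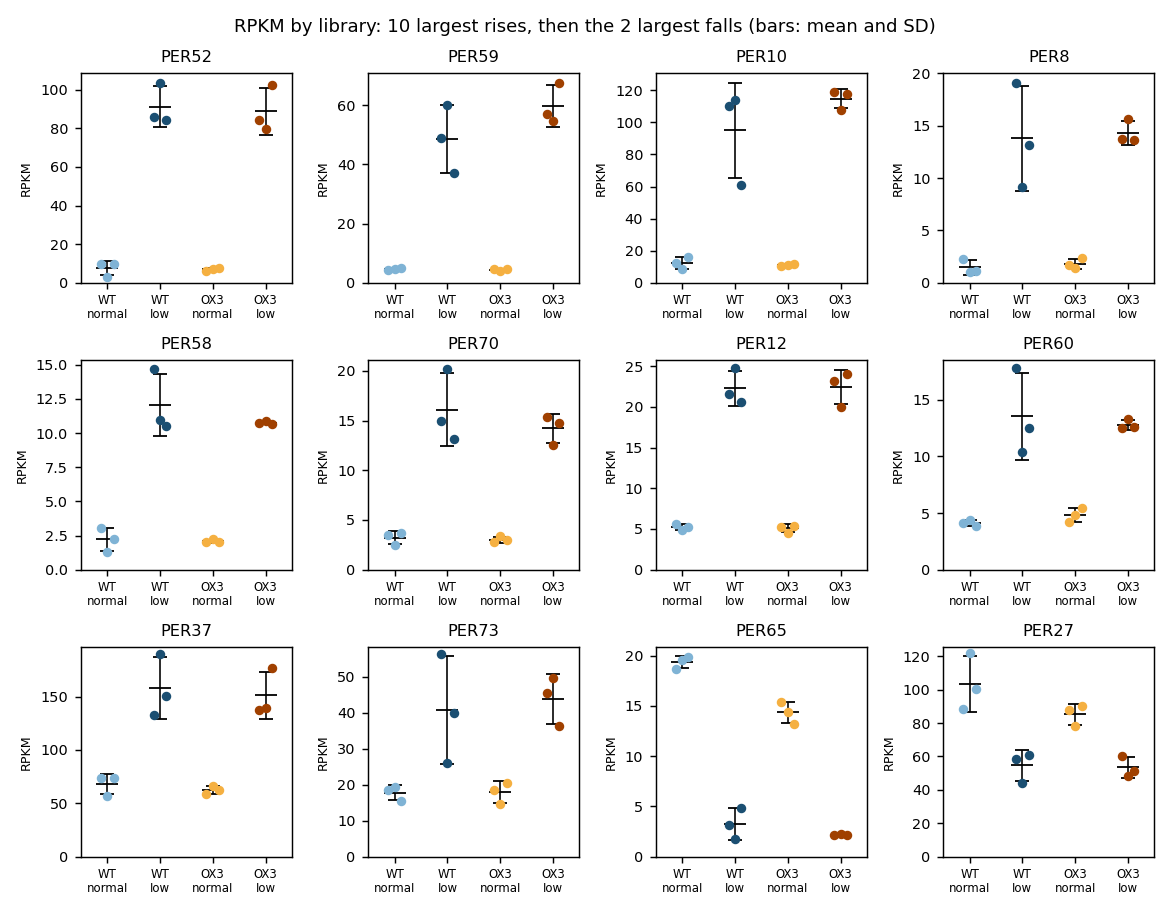
RPKM in each library (points) with the group mean and SD (black bars) for the 10 largest rises at low phosphate in wild type, followed by PER65 and PER27, the genes with the largest falls. In all 12 panels the low-phosphate points of a genotype are separate from its normal-phosphate points, as for PER52, where they lie near 90 against below 10 RPKM.

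PER65 (AT5G47000, chr5:19068803-19070333, minus strand) was the counterpart among the genes that fell. It is a gene of 1 exon block and measured 18.6, 19.5 and 19.8 RPKM at normal and 3.15, 1.71 and 4.83 at low phosphate. The groups stood wide apart, the mean at normal phosphate was 5.99-fold that at low phosphate, and the log2 change was -2.33 (SE 0.19, adjusted p = 1.17e-07, limma).

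The other members that fell did so by less. PER27 measured 88.3, 122 and 101 RPKM at normal and 58.7, 44.2 and 61.1 at low phosphate, a log2 change of -0.91 (SE 0.13). PER16, PER47 and PER22 followed with -0.63, -0.61 and -0.51. PER22 was the most abundant member that fell, from a mean of 478 ± 14.7 RPKM to 335 ± 26.5 (SD, n = 3). The falls of PER63 (log2 change -0.44), PER25 (-0.41), PER19 (-0.33), PER51 (-0.27), PER21 (-0.20) and PER15 (-0.16) had adjusted p-values of 0.0056 to 0.0474 in limma, and in each of these 6 genes all low-phosphate libraries lay below all normal-phosphate ones.

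Several of these small falls rested on single libraries. PER63 lost its call without wild-type normal-phosphate replicate 4 (adjusted p = 0.0505, limma). PER51 lost it without normal-phosphate replicate 3 (0.0793), normal-phosphate replicate 4 (0.0994) or low-phosphate replicate 3, where its log2 change was -0.14 (0.174). PER21 lost it without any one of the wild-type libraries other than low-phosphate replicate 2, with adjusted p-values of 0.0626 to 0.222 and a log2 change of -0.12 without low-phosphate replicate 3. PER15 lost it without any one of them other than low-phosphate replicate 3, with adjusted p-values of 0.064 to 0.147. A fit of the 2 compared groups alone also ended the calls of PER15, PER21 and PER51 (0.0742, 0.0759 and 0.0668), and so did testing without the RPKM minimum for PER21 (0.0731) and PER51 (0.0601).

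The 250 bases before the annotated gene start are shown for the members with the most extreme changes, PER52, PER59, PER10 and PER65, and for PER7, since 2 short motifs were searched there. P1BS, with the letters GNATATNC, is known as the binding site of PHR1, the main transcription factor of the phosphate starvation response, and the G-box, CACGTG, is bound by many basic helix-loop-helix and bZIP factors. Both read the same on either strand and both strands were searched and no window held both. P1BS occurred in 2 of the 68 windows, those of PER7 and PER67 (2.94%, against 5.48% of 23964 windows of protein-coding genes in the table). The G-box occurred in 1, that of PER65 (1.47%, against 7.03%). The windows, in TAIR10.1 and 5′ to 3′ on the gene's strand, are chr5:1580876-1581125 (minus) for PER52, chr5:6725967-6726216 (minus) for PER59, chr1:18346708-18346957 (plus) for PER10, chr5:19070334-19070583 (minus) for PER65 and chr1:10991228-10991477 (plus) for PER7. Capitals mark the motifs, which begin 194 bases before the start in PER65 (G-box) and 97 bases before it in PER7 (P1BS).
PER52: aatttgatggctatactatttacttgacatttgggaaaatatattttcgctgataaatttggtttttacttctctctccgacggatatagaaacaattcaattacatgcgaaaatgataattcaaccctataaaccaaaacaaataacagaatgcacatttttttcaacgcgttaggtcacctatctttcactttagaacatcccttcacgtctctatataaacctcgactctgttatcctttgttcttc
PER59: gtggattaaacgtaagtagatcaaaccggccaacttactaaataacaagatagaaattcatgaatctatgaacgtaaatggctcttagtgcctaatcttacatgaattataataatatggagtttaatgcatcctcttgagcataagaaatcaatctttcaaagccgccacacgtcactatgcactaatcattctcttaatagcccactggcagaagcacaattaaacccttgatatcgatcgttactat
PER10: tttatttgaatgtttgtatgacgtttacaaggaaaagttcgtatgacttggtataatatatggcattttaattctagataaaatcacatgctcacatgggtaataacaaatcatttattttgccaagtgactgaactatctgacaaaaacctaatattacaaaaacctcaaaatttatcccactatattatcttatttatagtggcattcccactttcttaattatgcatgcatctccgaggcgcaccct
PER65: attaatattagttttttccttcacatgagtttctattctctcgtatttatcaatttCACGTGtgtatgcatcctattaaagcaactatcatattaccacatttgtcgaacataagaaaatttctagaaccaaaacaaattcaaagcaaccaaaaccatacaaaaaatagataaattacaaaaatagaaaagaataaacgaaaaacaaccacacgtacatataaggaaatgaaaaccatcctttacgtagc
PER7: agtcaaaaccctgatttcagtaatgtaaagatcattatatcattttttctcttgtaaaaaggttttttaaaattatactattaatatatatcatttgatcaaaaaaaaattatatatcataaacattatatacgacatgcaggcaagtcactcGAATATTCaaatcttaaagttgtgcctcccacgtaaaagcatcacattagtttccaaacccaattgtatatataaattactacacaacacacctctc

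The windows of the 3 genes with the largest rises held neither motif. PER7, whose window held P1BS, measured 22.9, 25.6 and 17.6 RPKM at normal and 39.0, 22.7 and 31.9 at low phosphate in wild type. Its groups overlapped through low-phosphate replicate 3, and its log2 change of 0.47 (SE 0.18) missed the threshold (adjusted p = 0.0522, limma). Without normal-phosphate replicate 3 it was 0.58 (adjusted p = 0.0341), and without low-phosphate replicate 3 it was 0.67 (adjusted p = 0.00598). The other gene with P1BS, PER67, was below 1 RPKM on average. It had 0 reads in each wild-type library at normal phosphate and 2, 7 and 3 reads at low phosphate, and in OX3 it had 1, 0 and 0 reads and then 3, 3 and 4.

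Members were next read by role, beside the 24.3% of all genes called higher and 21.6% called lower in wild type. The root hair group held AT1G05240, PER44 and PER73, known to act in root hair elongation, PER62 and PER69, tied to hair growth in the cold, and PER7, PER35 and PER60, known from root hair expression. Of its 7 tested members 5 were higher and none lower at low phosphate in wild type, and the median log2 change was 0.47. PER60 measured 4.11, 4.38 and 3.82 RPKM at normal and 17.8, 10.4 and 12.5 at low phosphate, and PER73 measured 18.4, 19.4 and 15.4 and then 56.2, 26.0 and 39.9. Low-phosphate replicate 3 was the lowest of its group in both genes, and the groups did not overlap. PER35 and PER69 rose by 0.69 (SE 0.17) and 0.36 (SE 0.08).

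PER44 was the least secure of the root hair group. It measured 21.5, 26.3 and 17.7 RPKM at normal and 39.1, 22.0 and 31.6 at low phosphate, a log2 change of 0.46 (SE 0.17, adjusted p = 0.0426, limma). Its groups overlapped, again through low-phosphate replicate 3. The call was lost without normal-phosphate replicate 2 (adjusted p = 0.0871), normal-phosphate replicate 4 (0.177), low-phosphate replicate 2, where the log2 change was 0.28 (0.193), or low-phosphate replicate 4 (0.106). It was also lost with median-ratio size factors (0.0572), without the RPKM minimum (0.084) and with the 2 compared groups alone (0.088). PER62 (log2 change 0.21, adjusted p = 0.0723) did not pass. AT1G05240 was below the minimum, with 6, 10 and 7 reads at normal and 12, 14 and 19 at low phosphate in wild type.

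Other root hair genes moved in the same libraries. Of 12 genes for hair fate and growth, 11 were higher and 1 was lower at low phosphate in wild type. Over all genes the shares were 24.3% and 21.6%, and the median log2 change of these 12 was 1.08. They included RHD6, a transcription factor of hair initiation (log2 change 1.25, SE 0.10), COW1, needed for hair tip growth (1.33), and the wall protein genes PRP1 (2.28) and PRP3 (1.86), and the gene that fell was the NADPH oxidase RBOHC (-0.30). Their summed level was 78.2, 84.0 and 68.3 RPKM at normal and 238, 133 and 184 at low phosphate, so replicate 3 was again the lowest at low phosphate. The part of hair number or hair RNA in the peroxidase rises was not tested.

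Of the members tied to the oxidative burst, PER37 rose most. PER33 and PER34 are known to produce much of the reactive oxygen that follows contact with fungal or bacterial elicitors, and PER4, PER37 and PER71 are also tied to defence. In wild type 3 of the 5 were higher, against 24.3% of all genes. These were PER37 (log2 change 1.20, SE 0.13), PER71 (0.80, SE 0.09) and PER4 (0.48, SE 0.12). PER33 did not pass (0.27, adjusted p = 0.232, limma). PER34 measured 715, 642 and 765 RPKM at normal and 878, 763 and 801 at low phosphate, groups that overlapped narrowly. Its log2 change of 0.20 had an adjusted p of 0.0639, and this became 0.0353 without normal-phosphate replicate 4 and 0.0442 without low-phosphate replicate 3 (limma).

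The lignin and xylem group held members whose mutants or expression tie them to lignin, with PER52 by far the strongest response. Of its 6 tested members 4 were higher (PER52, PER66, PER71 and PER72) and 1 was lower (PER25) in wild type. The shares over all genes were 24.3% and 21.6%. PER66 measured 8.30, 8.26 and 6.33 RPKM at normal and 13.2, 12.1 and 12.8 at low phosphate, without overlap, a log2 change of 0.68 (SE 0.12). PER25 measured 64.5, 57.0 and 70.5 RPKM and then 52.1, 50.3 and 41.6, a log2 change of -0.41 (SE 0.11), while PER17 stayed between 13.1 and 15.7 RPKM in all 6 wild-type libraries. AT1G05250, also of this group, had 2, 9 and 11 reads at normal and 12, 16 and 10 at low phosphate.

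More genes for the lignin monomers were higher than lower in wild type, where 24.3% of all genes were called higher and 21.6% lower. Of 15 tested, 8 were higher and 2 lower in wild type, with 4CL2, which activates hydroxycinnamic acids, at a log2 change of 0.67, COMT1, a methyltransferase of the pathway, at 0.56 and F5H1, which leads to syringyl units, at -0.89. Of 5 tested genes for xylem walls and xylem cell death, none was higher and 1 was lower, XCP1, a protease of xylem cell death, at -0.54.

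Of the 4 Casparian strip members, 3 rose by small amounts, against 24.3% of all genes called higher. PER3, PER9, PER39 and PER72 are known to act together, with 1 further peroxidase, in the lignin ring of the endodermis. PER3 measured 119, 154 and 133 RPKM at normal and 171, 159 and 171 at low phosphate, PER39 38.8, 49.2 and 42.7 and then 52.1, 50.1 and 53.8, and PER72 65.1, 82.5 and 72.4 and then 94.8, 81.0 and 94.0. These 3 were higher, by 0.31 (SE 0.08), 0.26 (SE 0.08) and 0.29 (SE 0.09) on the log2 scale, with overlap only in PER72. Without normal-phosphate replicate 2, which was the lowest library in all 3 genes, PER39 and PER72 lost their calls (log2 changes 0.18 and 0.21, adjusted p = 0.0707 and 0.0698, limma). PER9 did not pass (0.17, adjusted p = 0.0699) unless normal-phosphate replicate 3 was left out (0.26, adjusted p = 0.00657).

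Other genes of the endodermis moved with them. Of 9 tested, 8 were higher and none lower in wild type, against 24.3% and 21.6% of all genes. They included MYB36, the transcription factor that switches on strip formation (log2 change 0.79), and CASP4 (0.78), a membrane protein that marks the strip. SGN3, the receptor that checks strip integrity, was higher by 0.64. The list summed to 165, 227 and 195.5 RPKM at normal and 269, 237 and 269 at low phosphate, and normal-phosphate replicate 2 was the lowest here as well.

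Of the 3 members that UPB1 is known to repress at the border of the root meristem, 1 was called, a share that says little beside the 24.3% of all genes called higher. UPB1 itself, a basic helix-loop-helix factor, rose from 13.2 to 30.4 RPKM on average (log2 change 1.14, adjusted p = 9.26e-07, limma). Among these targets PER39 was higher, as above, whereas PER40 (-0.24, adjusted p = 0.169) and PER57 (-0.18, adjusted p = 0.419) did not pass. PER57 was uneven at low phosphate, with 119.7, 66.0 and 91.7 RPKM, and without low-phosphate replicate 2 its log2 change was -0.38 (adjusted p = 0.0463).

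Enzymes that supply or remove the hydrogen peroxide are given for context. Of 8 tested NADPH oxidases, which make superoxide at the plasma membrane, 3 were higher and 3 lower in wild type. RBOHE (0.55) and RBOHD (0.32), the oxidase of immune signalling, led the rises, and RBOHG (-1.81) and RBOHB (-0.57) the falls. Of 16 superoxide dismutases, catalases and ascorbate peroxidases, 4 were higher and 4 lower, shares near those of all genes (24.3% and 21.6%), with CAT3 (0.51) and CSD2 (-0.64) among them. Of 8 transcription factors tied to peroxidase or lignin genes, 7 were higher, including MYB15 (1.26), and 1 was lower, MYB30 (-1.44), a regulator of reactive oxygen responses in roots. This list repeats genes given above, namely UPB1, MYB36, RHD6 and other factors of the root hair list, so its count is not separate from theirs.

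Close copies could differ in level and in response. PER33 and PER34 share 92.9% of their aligned residues, yet averaged 1.09 and 701.5 RPKM, and PER14 and PER15 share 88.7% and averaged 0.149 and 194 RPKM. PER50 and PER51 are neighbours on chromosome 4 with 89.4% identity and responded in opposite directions in wild type. PER50 measured 99.6, 108 and 114 RPKM at normal and 192, 176 and 177 at low phosphate, and PER51 34.8, 36.7 and 37.7 and then 33.2, 25.0 and 32.8. Neither overlapped, and the log2 changes were 0.75 (SE 0.06) and -0.27 (SE 0.10), although the PER51 call rested on single libraries, as above.

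PER22 and PER23, neighbours on chromosome 2 with 89.4% identity, gave log2 changes of -0.51 (SE 0.07) and -0.05 (SE 0.10). PER23 measured 214, 177 and 222 RPKM at normal and 230, 178 and 186 at low phosphate, with overlap. Other neighbours rose together, namely PER37 and PER38 (1.20 and 0.70), PER53 and PER54 (0.49 and 0.80), PER58 and PER59 (2.05 and 3.10), and PER69, PER70 and PER71 (0.36, 2.01 and 0.80). PER4 rose by 0.48, while its neighbour PER5 had a change of 0.27 that did not pass (adjusted p = 0.145, limma). The differences between paired genes were not tested.

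**Figure D3:**
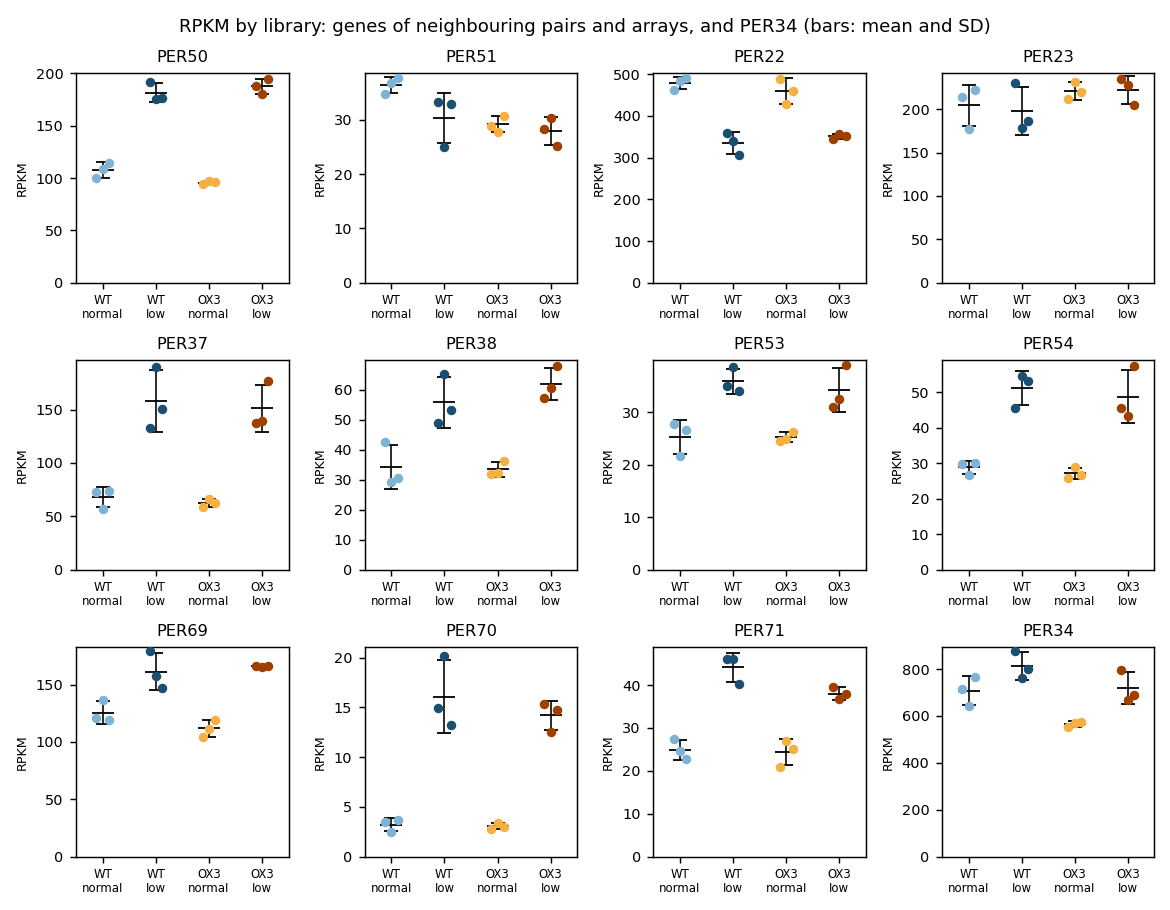
RPKM in each library (points) with group mean and SD (black bars) for neighbouring members and for PER34. PER50 rises and PER51 does not, PER22 falls while PER23 overlaps between media, and PER53, PER54, PER69, PER70 and PER71 are all higher at low phosphate.

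Exons of 10 members overlap those of another gene, mostly on the opposite strand, and the sources used here do not state whether counting used strand. The overlap is 30.4% of the exon length for PER43, 18.7% for PER63, 12.1% for PER38 and under 10% for PER7, PER40, PER44, PER47, PER55, PER66 and PER73, and reads there cannot be assigned for certain. The partner of PER44 averaged 0.240 RPKM in wild type at normal and 0.394 at low phosphate, and that of PER7 averaged 96.8 and 98.3 RPKM.

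The remaining called members in wild type were PER49 (log2 change 0.67), one of the 10 most abundant, and PER24 (0.89), PER55 (0.67), PER56 (0.61) and PER20 (0.30), which were named after their values were seen. PER20 lost its call without normal-phosphate replicate 2 (adjusted p = 0.0594) or normal-phosphate replicate 4 (0.0508, limma), and with the 2 compared groups alone (0.0672). PER31 fell short at -0.17 (adjusted p = 0.0516) and passed without normal-phosphate replicate 2 (0.0446) or low-phosphate replicate 2 (0.0327). PER11 (0.17, adjusted p = 0.108) passed without low-phosphate replicate 4 (0.0262). PER33, with 0.845 to 1.78 RPKM in the wild-type libraries, did not pass (adjusted p = 0.232).

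The 13 members under the minimum of 1 RPKM were not tested in the fit above. Without that minimum, PER36 (log2 change -0.50), PER28 (-0.41) and PER43 (-0.38) were called lower and PER67 (0.20) higher in wild type. Over all 25941 genes the same fit called 16.5% lower and 18.9% higher. PER43 shares 43 exon bases on the same strand with a gene that averaged 48.7 RPKM at normal and 41.4 at low phosphate in wild type. PER36, known for its role in seed mucilage release, had 11, 21 and 12 reads at normal and 4, 5 and 1 at low phosphate. PER28 had 19, 4 and 9 reads and then 0, 4 and 1. PER13, PER29 and PER41 had at most 3 reads summed over the libraries of any group, too few to compare. The rest, AT1G05240, AT1G05250, PER14, PER18, PER46 and PER48, did not pass in wild type without the minimum. In OX3 the same fit called PER36 (-0.45) and PER28 (-0.35) lower and PER67 (0.16) higher. There 18.4% of all genes were called lower and 17.9% higher.

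In OX3 roots, too, more members were higher than lower at low phosphate, and no library is shared with the wild-type comparison. Of the 55 tested members 30 were higher and 9 lower, against 23.3% and 23.8% of all genes, and the median log2 change was 0.42 for members and -0.02 for all genes. At least 1 on the log2 scale was reached by 10 members upward, against 4.53% of all genes, and by 1, PER65, downward, against 3.35%. The members called higher in both genotypes numbered 28, which is 28 of 28 in wild type and 28 of 30 in OX3, where PER11 and PER34 were added. Those lower in both numbered 8 (PER15, PER16, PER19, PER22, PER27, PER47, PER63 and PER65), 8 of 11 in wild type and 8 of 9 in OX3. The matching shares over all genes were not counted, so this overlap cannot be called particular to the family.

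Across the 55 tested members the log2 changes of the genotypes correlated with Pearson's r of 0.987 and Spearman's rho of 0.968. This is a description across genes, which are not independent replicates, and both comparisons used the same genes and media. Over all genes tested r was 0.959. PER52 measured 6.12, 7.12 and 7.65 RPKM at normal and 84.1, 79.5 and 102 at low phosphate in OX3, a log2 change of 3.49 (SE 0.26). PER59 measured 4.54, 4.13 and 4.57 and then 57.1, 54.6 and 67.7, a change of 3.48 (SE 0.13). As in wild type both genes were separate between media, and PER65 was too, with 15.4, 14.4 and 13.2 RPKM against 2.12, 2.25 and 2.17, a change of -2.27 (SE 0.19, adjusted p = 1.58e-07, limma).

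**Figure D4:**
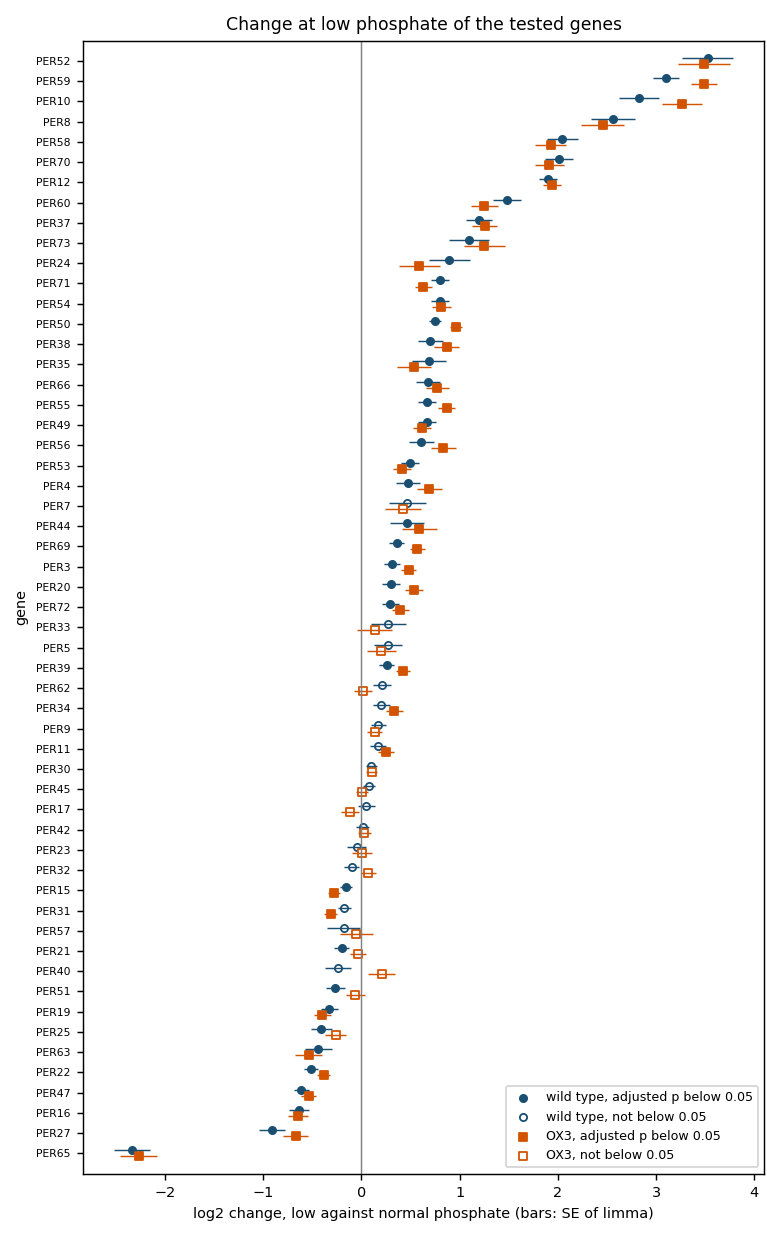
Fitted log2 change at low against normal phosphate (points, with the SE of limma as bars) of the 55 tested members in wild type and OX3, filled where the adjusted p was below 0.05. The genotypes' points lie close for nearly every gene, from PER65 near -2.3 to PER52 near 3.5.

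By role, the OX3 counts were as follows, beside 23.3% of all genes called higher and 23.8% called lower. In the root hair group 5 of 7 were higher, in the oxidative burst group 4 of 5 and in the lignin and xylem group 4 of 6. In the Casparian strip group 3 of 4 were higher and among the UPB1 targets 1 of 3, and none was lower in any role group. The groups share called members, namely PER71 (burst and lignin), PER72 (lignin and Casparian strip) and PER39 (Casparian strip and UPB1). The group counts in either genotype are therefore not separate from each other. PER34, the addition to the burst group, measured 553, 572 and 576 RPKM at normal and 796, 667 and 691 at low phosphate, without overlap, a log2 change of 0.34 (SE 0.09, adjusted p = 0.00459, limma). PER25 did not pass (-0.26, adjusted p = 0.0567). It did so without OX3 normal-phosphate replicate 3 (adjusted p = 0.0178) or low-phosphate replicate 4 (0.0278). The wider lists gave 11 of 12 root hair genes higher and 1 lower, 9 of 9 endodermis genes higher, 9 higher and 2 lower of 15 lignin monomer genes, 3 and 3 of 8 NADPH oxidases, 4 and 5 of 16 dismutases, catalases and ascorbate peroxidases, 7 and 1 of 8 transcription factors, and 0 and 1 of 5 xylem genes.

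Calls in OX3 that rested on single libraries were those of PER11, PER24, PER35 and PER44. PER35 (log2 change 0.54) lost its call without normal-phosphate replicate 3 (adjusted p = 0.0923), low-phosphate replicate 1 (0.0638) or low-phosphate replicate 2 (0.0617, limma). PER44 (0.59) lost it without low-phosphate replicate 2 (0.065). PER24 (0.59) lost it without normal-phosphate replicate 2 or 3 or low-phosphate replicate 1 or 2, with adjusted p-values of 0.0896 to 0.151, and without the RPKM minimum (0.0686). PER11 (0.25) lost it without normal-phosphate replicate 3 or 4 or low-phosphate replicate 1 or 4, with 0.0525 to 0.0823. PER7 (0.42, adjusted p = 0.0745) passed without normal-phosphate replicate 4 (0.58, adjusted p = 0.0301).

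No peroxidase gene differed between OX3 and wild type past the threshold. At normal phosphate limma called 0 of the 55 members, against 3.1% of all genes. An unadjusted p below 0.05 was reached by 13 members and by 24.11% of all genes, so the members' share was near the background. The count over all genes rested on single libraries: it was 259 higher and 328 lower with all of them, ranged from 4 higher and 4 lower without OX3 normal-phosphate replicate 4 to 438 and 621 without wild-type normal-phosphate replicate 2, and its sum over both directions moved by more than 1.5 times without any one library of these groups, while the members called stayed at 0. With voom on recovered reads 2 were lower in OX3, PER34 (log2 difference -0.32, adjusted p = 0.0266) and PER65 (-0.43, adjusted p = 0.048). The median log2 difference of OX3 from wild type was -0.05 for members and 0.02 for all genes, and the 95% intervals of all tested members together spanned -0.81 to 0.69.

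The members nearest to the threshold at normal phosphate were PER34, PER4 and PER51, all lower in OX3. PER34 measured 553 to 576 RPKM in OX3 against 642 to 765 in wild type (log2 difference -0.32, SE 0.09, adjusted p = 0.0548, limma). PER4 measured 8.42, 9.83 and 8.24 RPKM in OX3 against 12.5, 11.8 and 12.6 (log2 difference -0.44, SE 0.12, adjusted p = 0.0629). PER51 measured 28.9, 27.8 and 30.7 RPKM against 34.8, 36.7 and 37.7 (log2 difference -0.31, SE 0.10, adjusted p = 0.0792). No library of one genotype reached those of the other in these 3 genes. In a fit of the 2 normal-phosphate groups alone these 3 and PER65 were called, with adjusted p-values of 0.0267 to 0.0386. Leaving out low-phosphate libraries, which changes only the shared estimate of the spread, also called them: PER34 without OX3 replicate 1 (0.0486) or wild-type replicate 2 (0.0377), PER4 without wild-type replicate 2 (0.0271) and PER51 without wild-type replicate 3 (0.0332).

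At low phosphate limma again called 0 of 55 members, against 0.0423% of all genes, and voom called 0. An unadjusted p below 0.05 was reached by 9 members and by 14.74% of all genes, again a share near the background. The 3 with the smallest p were PER31 (log2 difference -0.28, adjusted p = 0.169), PER25 (0.39, adjusted p = 0.189) and PER62 (-0.28, adjusted p = 0.235). PER31 measured 22.8, 23.8 and 20.9 RPKM in OX3 against 29.0, 25.3 and 28.4, and PER25 measured 59.6, 59.5 and 70.2 against 52.1, 50.3 and 41.6. Neither gene overlapped between genotypes. Without wild-type low-phosphate replicate 2, PER20 was called higher in OX3 (log2 difference 0.38, adjusted p = 0.017).

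**Figure D5:**
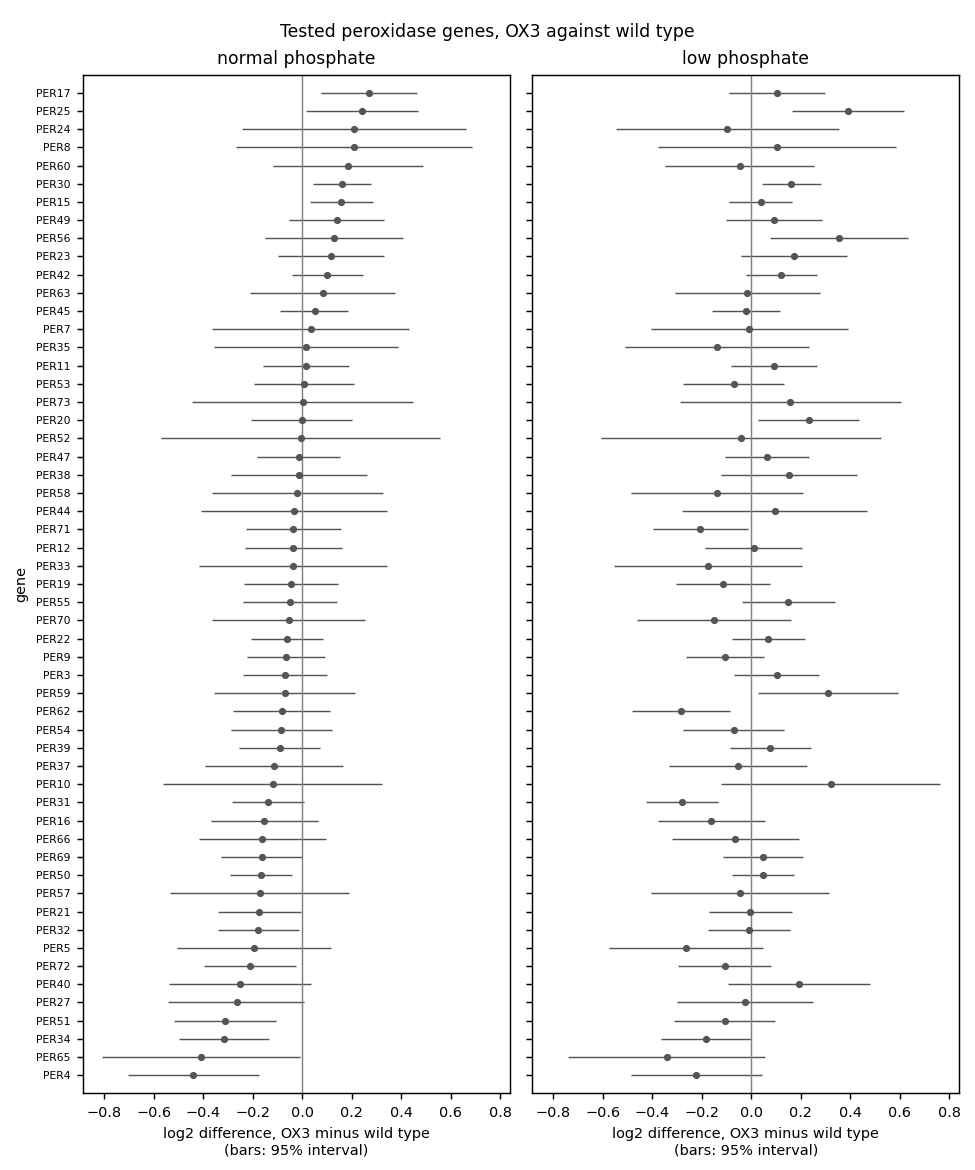
Log2 difference of OX3 from wild type (points, with 95% intervals as bars) of the 55 tested members at normal and at low phosphate, with genes ordered by the difference at normal phosphate. No difference passed the threshold after adjustment, and PER4, PER65, PER34 and PER51 lie at the low end at normal phosphate.

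Whether the response to phosphate differed between genotypes was tested by the interaction. Limma called 0 of 55 members, as it called 0% of all genes, and voom called 0. An unadjusted p below 0.05 was reached by 2 members and by 7.14% of all genes. The smallest adjusted p among members was 0.669, for PER50, whose response was 0.21 larger in OX3 on the log2 scale (95% interval 0.04 to 0.39). PER40 (0.44, adjusted p = 0.685) and PER59 (0.38, adjusted p = 0.718) followed. Simulated data of the same size gave all genes the same dispersion, a measure of the spread between libraries. There an interaction of 1 on the log2 scale was found in 69.6% of the genes that carried it. An interaction of 0.5 was found in 3.17%. The fitted SE of the interaction varied among members, as with 0.083 for PER50 and 0.372 for PER52. The simulated shares therefore need not hold for a given member. A member that did not pass is not shown to respond equally in both genotypes.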

How the data were processed

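The authors deposited 1 table of RPKM values per gene and library. Per the submitters' processing notes, HTSeq 0.6.0 and the TAIR10 build were used, in roles those notes as given here do not state; the sources do not say whether counting used strand. Members and gene lists were chosen with earlier results of these data known. All 68 members had the same position in the TAIR10.1 reference. The total of each library was inferred as the value that brought RPKM times exon length closest to whole reads. With these totals the products were whole reads, within 0.01, in all 12 libraries for 25547 genes (99.45% of those with a length). Since the totals were chosen for this, the agreement is not a separate check of them.

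Tests used limma 3.58.1 (R 4.3.3) with its trend option on log2(RPKM + 1), for the 18910 genes that averaged 1 RPKM or more. The 4 groups entered 1 fit with 5 two-sided comparisons, and p-values were adjusted by Benjamini and Hochberg over all genes tested. SE is that of limma, SD is between libraries. The procedure was tested on simulated data. Alternatives were size factors, no minimum, a pseudocount of 0.1, a replicate block, compared groups alone, a minimum log2 change of 1, voom on reads recovered for 18752 genes, and leaving out each library.

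Genes were named by rule: the 10 most abundant members, the 10 largest called changes in each direction without overlap per phosphate comparison, every member of the role groups, the 3 smallest p where none was called, and up to 4 called genes of each list. The other members were named after their values were seen. Coding sequences were translated and aligned with Biopython 1.88, and promoter windows were read from the TAIR10.1 genome.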

Additional observations from a re-analysis of the deposited data

How the results depend on the processing

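The counts of called members kept within 1.5 times of those reported under size factors, no minimum, a pseudocount of 0.1, compared groups alone and voom in both phosphate comparisons. With a minimum log2 change of 1 they were 10 higher and 1 lower in wild type and 10 higher and 1 lower in OX3, since smaller changes are then not counted. Between genotypes at normal phosphate, 4 members were lower with the compared groups alone and 2 with voom; the cause was not tested. Leaving out each library of the compared groups gave 24 to 30 higher and 7 to 12 lower members in wild type, 27 to 30 and 9 to 10 in OX3, 0 to 0 between genotypes at normal phosphate, 0 to 1 higher and 0 to 0 lower at low phosphate, and 0 to 0 for the interaction. No fitted change of a called member reversed in either phosphate comparison. Members that were not called were not checked for a change of sign. Members that passed only under an alternative were PER7, PER31 and PER34 in wild type with voom (0.0381, 0.047 and 0.0377), PER31 with size factors (0.0352), and PER7 and PER25 in OX3 with the compared groups alone (0.0192 and 0.0288), PER25 also with voom (0.0382); all are adjusted p-values of limma. With the replicate number as a block (replicate block), 28 were higher and 11 lower in wild type and 26 higher and 9 lower in OX3. PER44 in wild type (adjusted p = 0.0533) and PER11, PER24, PER34 and PER35 in OX3 (0.0643 to 0.138) were not called by limma, and PER34 in wild type was (0.0481). Replicate number 1 occurred only in OX3 at low phosphate, so the block fitted that library exactly and it added nothing to the comparison. In OX3 the loss of this library and the block itself cannot be told apart. Same-numbered libraries correlated at -0.143 to 0.121 in their deviations, so the numbers give no pairing. Depth limits the 13 members below 1 RPKM, and repeated exon stretches also make the values of AT1G05240 and AT1G05250 uncertain.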
